A study of Mus musculus with 46 samples.

Results

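Gene expression on 5 liver arrays taken 8 h after carbon tetrachloride (CCl4) was compared with that on 5 liver arrays taken 2 h after it. The 10 arrays were chosen by their titles among the 46 of a time course, and 5 arrays of untreated livers served to say which genes the first 2 h had already moved. The 8 h and 2 h livers came from male C57BL/6N mice of 8 to 10 weeks given 1 intraperitoneal injection of CCl4 at 1.6 g/kg in olive oil. The control livers came from mice described as untreated, with no oil injection, on the same standard diet. In differences from control, and so in the wave classes, CCl4 cannot be told apart from the injection and the oil. No transgene or deletion is named for any group. The hour at which livers were taken was not used here, and the 6 h between the groups cannot be told apart from the hours of the day they span. Arrays within a group carry numbers, but no label ties each to its own mouse, and the p-values therefore reflect only how far these arrays differ, which may be technical. Whole liver was measured, so fewer cells of a type and less RNA per cell cannot be told apart.

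CCl4 is turned into reactive radicals in hepatocytes, mainly by Cyp2e1, a cytochrome P450 most abundant near the central veins, and these radicals damage membranes of the endoplasmic reticulum. In injured cells the first transcripts to be made are those of immediate early genes, which need no new protein and whose mRNAs are short-lived. Their products and the stress sensors of the cell then act on later genes, among them those for chaperones, antioxidant enzymes, ribosome assembly and inflammatory signals.

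Of 13239 genes tested, 2705 were higher at 8 h than at 2 h (20.4%) and 2044 were lower (15.4%), so that 35.9% were called either way by limma at an adjusted p under 0.05. A change of at least 2-fold was called for 345 genes that rose (2.61%) and 175 that fell (1.32%). All 5 arrays at 8 h lay above all 5 at 2 h for 1834 genes (13.9%), and below them for 1173 (8.86%). The share of calls that were rises was 57.0%, and it was 67.5% after shifting every array to a common median (2937 rises, 1415 falls) and 48.0% with quantile normalization (2441 rises, 2648 falls). The median difference over all genes tested was -0.05 on the log2 scale, and the median standard error of a difference was 0.0966. Errors after ± are limma's standard errors of the log2 difference, or SDs where so marked, and levels are log2 RMA values.

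**Figure D1:**
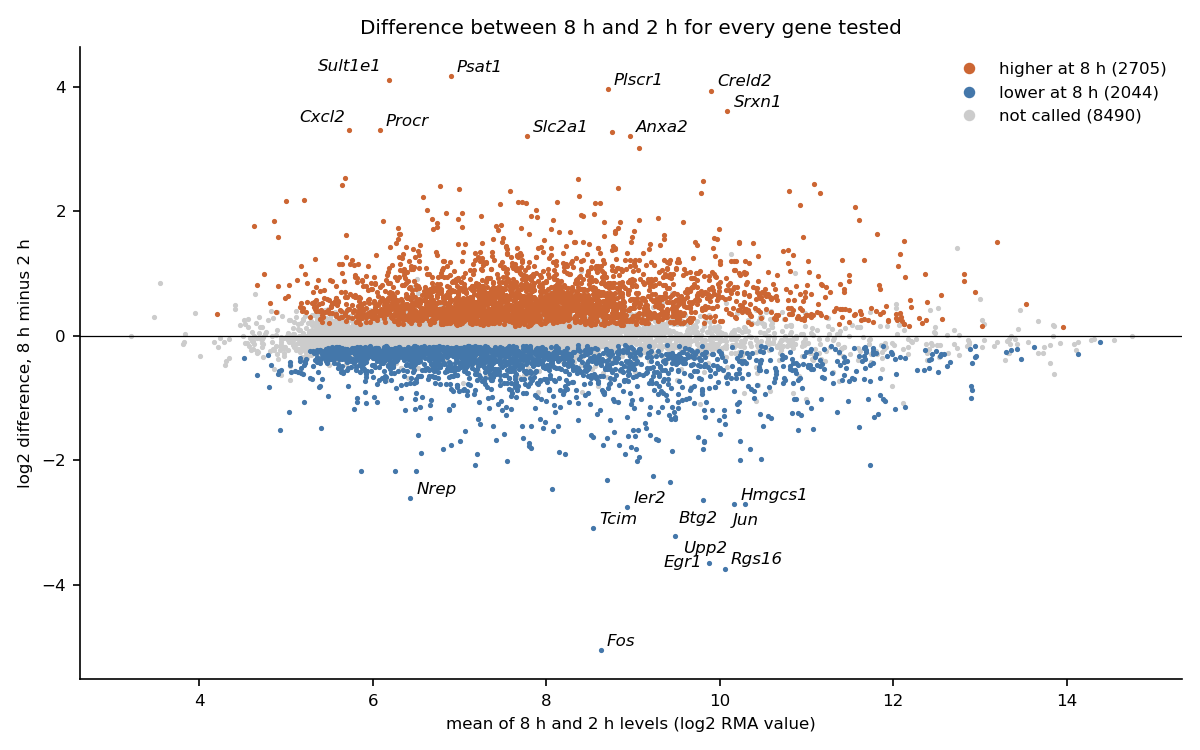
Each point is 1 of the 13239 genes tested, with the mean of its 8 h and 2 h levels (log2 RMA value) across and its log2 difference, 8 h minus 2 h, upwards. Orange points are the 2705 genes called higher at 8 h and blue points the 2044 called lower. The named genes are the 10 largest falls and 9 of the 10 largest rises, from Psat1 at 4.18 down to Fos at -5.05.

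Some arrays stood apart within their group. Arrays at 8 h correlated with each other across genes at r from 0.980 to 0.993, arrays at 2 h at r from 0.975 to 0.989, and arrays of different times at r from 0.917 to 0.965, where genes are not independent replicates. Array 3 at 2 h was the highest 2 h array for 177 (51.3%) of the 345 genes that rose by at least 2-fold, against 16.3% of all genes tested. Its median position on those 345 genes was 16.1% of the way from the 2 h mean to the 8 h mean, and that of array 4 was -15.6%. The antioxidant gene Srxn1 shows the pattern, since array 3 at 2 h read 10.71 while the other 2 h arrays read 7.22 to 8.18 and the 8 h arrays 11.47 to 12.26. Other classes of genes, defined below, placed the 2 h arrays differently. On the 248 first-wave genes shut off, array 3 at 2 h stood at -22.3%, away from the 8 h mean, and was the highest 2 h array for 107 (43.1%). On the 1491 second-wave genes switched on, array 2 at 2 h stood at 21.2% and array 3 at 16.8%. At 8 h array 3 was the highest for 193 of the 345 genes (55.9%) and array 1 the lowest for 147 (42.6%). Leaving out array 3 at 2 h changed the count of rises of at least 2-fold to 414, and leaving out array 3 at 8 h changed it to 298.

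**Figure D2:**
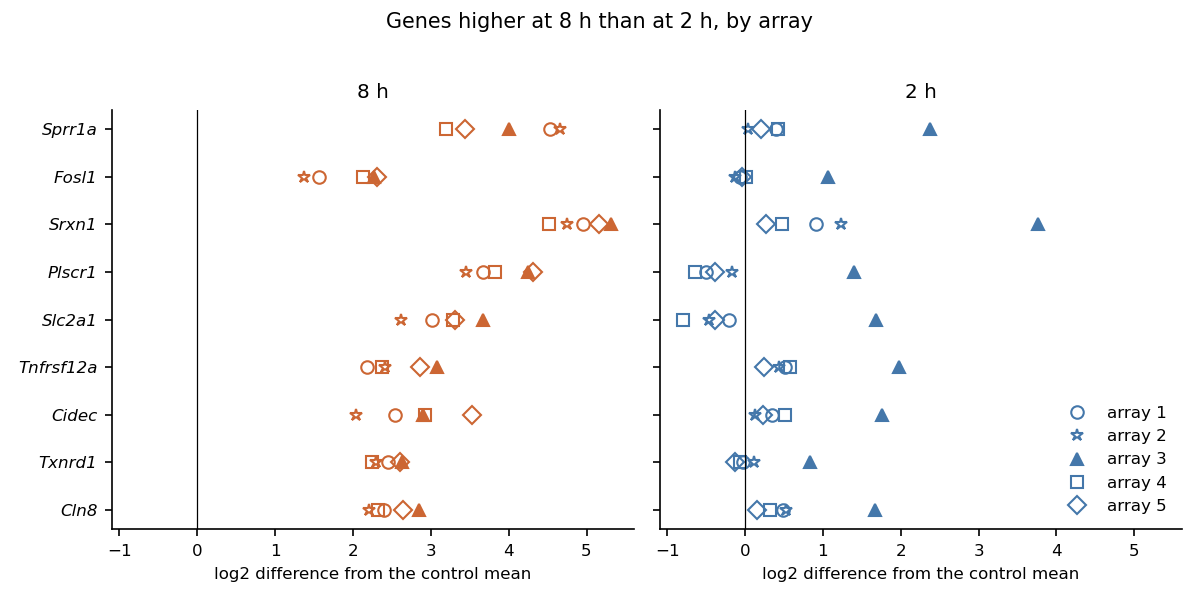
For 9 genes that were higher at 8 h, the log2 difference of each array from the mean of the 5 control arrays is plotted for 8 h (left) and 2 h (right), with filled triangles for array 3. They were chosen because array 3 was far above the other 2 h arrays, so the picture describes that array. In all 9 genes it is the highest of the 2 h arrays and still below every 8 h array.

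A second split at 2 h ran through the clock. Dbp, a transcript whose level cycles over the day, read 8.30, 9.23, 8.14, 8.16 and 8.16 on the 8 h arrays, against 6.58, 6.40, 6.45, 9.38 and 10.13 on the 2 h arrays, and its partner in opposite phase, Arntl (Bmal1), read 6.04, 6.08, 6.20, 6.11 and 5.97 on the 8 h arrays, against 6.84, 7.41, 6.71, 5.43 and 5.92 on the 2 h arrays. The controls were split too, with Dbp at 8.34, 9.08, 10.59, 10.54 and 10.62. The 2 h arrays 4 and 5 lay apart from arrays 1 to 3 in both genes, while at 8 h array 2 stood off from the others in Dbp. Of 17 clock genes none was called higher and 2 were called lower (Bhlhe40 and Rora, 11.8% against 15.4% of all genes tested). Rora was not called in 5 of 10 settings with 1 array left out, and without arrays 1 to 3 at 2 h it lost its direction too (0.0368). Bhlhe40 was not called without arrays 1 to 3 at 2 h (adjusted p = 0.0651) or without arrays 1 and 2 at 8 h (adjusted p = 0.0714). The step of Dbp was 0.61 (adjusted p = 0.632) and that of Arntl -0.38 (adjusted p = 0.453). With arrays 4 and 5 at 2 h left out, 2085 genes were higher and 1285 lower, and with arrays 1 to 3 left out 2469 were higher and 1529 lower, 2 settings chosen after seeing the data.

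**Figure D3:**
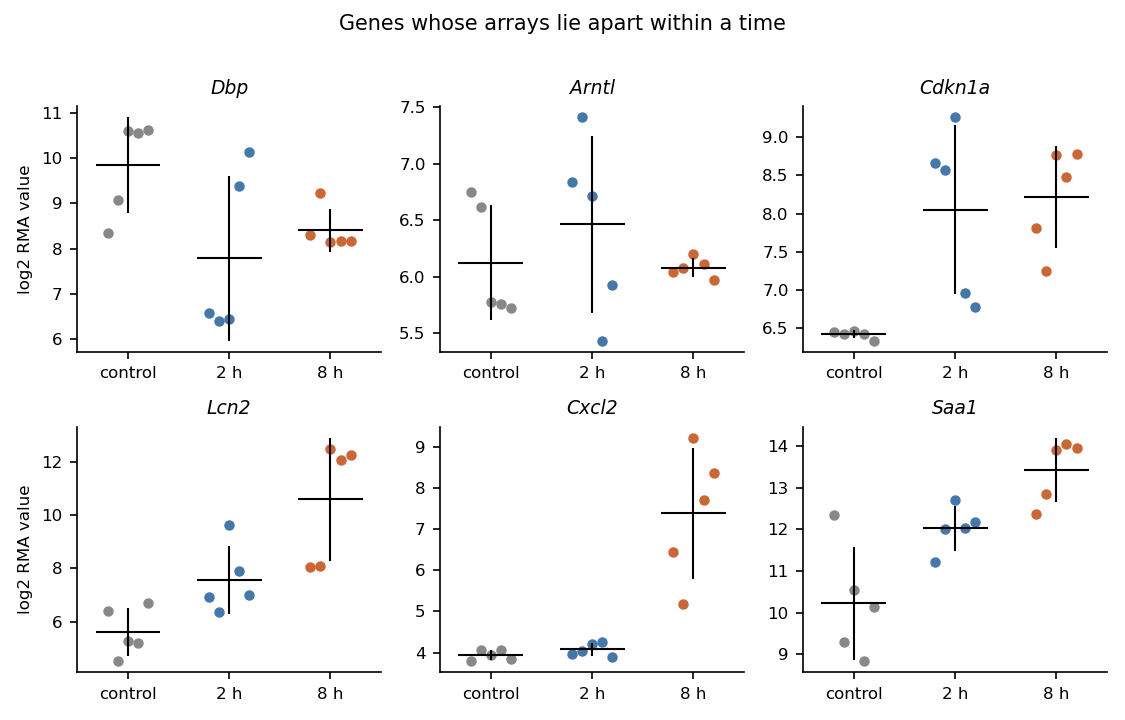
Log2 RMA values of 6 genes on each array of the control, 2 h and 8 h groups, with the mean (horizontal bar) and SD (vertical bar, n = 5) of each group. Dbp, Arntl and Cdkn1a are split among the 2 h arrays, and Lcn2, Cxcl2 and Saa1 are lower on arrays 1 and 2 at 8 h than on arrays 3 to 5.

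The step was then read against control to sort genes into waves. The 3 comparisons (8 h with 2 h, 2 h with control, 8 h with control) share arrays, so these counts are descriptions with no test. At 2 h 848 genes were above control (6.41%) and 2638 below it (19.9%), and at 8 h 2342 were above (17.7%) and 3207 below (24.2%). First-wave genes that were shut off, raised at 2 h and lower at 8 h than at 2 h, numbered 248. Of these, 197 were no longer called against control at 8 h, 38 were still above it and 13 were below it. The fall was at least 2-fold for 62 of the 248, and the median step was -0.50. A further 239 genes were raised at both times with no called step, and 173 were raised at 2 h and higher again at 8 h. Second-wave genes that were switched on, not called at 2 h but higher at 8 h than both at 2 h and in control, numbered 1491, and 763 genes were switched off in the same sense. The step was at least 2-fold for 258 of the 1491 (median 0.60) and for 79 of the 763 (median -0.39). The names of these classes describe calls, and most of their steps were small. Among the genes lowered at 2 h, 567 were lower again at 8 h, 477 came back to where they were not called against control, and 157 were above control at 8 h. Of the 148 genes raised at least 2-fold at 2 h, 67 fell over the step, 50 were not called and 31 rose, and 107 were still above control at 8 h. Of the 476 genes raised at least 2-fold at 8 h, 404 rose over the step, and 190 were already above control at 2 h.

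The AP-1 transcription factor, a dimer of Fos and Jun family proteins, gave the largest fall. Of 9 genes for its subunits, 6 were lower at 8 h and 1 was higher, with a median difference of -1.19. Fos read 5.88, 5.86, 6.21, 6.52 and 6.04 on the 8 h arrays, against 11.46, 11.04, 10.32, 12.44 and 10.49 on the 2 h arrays. That is a 33.1-fold fall (log2 difference -5.05 ± 0.38, adjusted p = 9.98e-14), which left no called difference from control at 8 h (0.43, adjusted p = 0.397). Jun read 8.70, 8.60, 9.34, 9.19 and 8.86 on the 8 h arrays, against 11.46, 11.47, 11.63, 12.24 and 11.39 on the 2 h arrays, a fall of 6.5-fold (-2.70 ± 0.40, adjusted p = 6.44e-07). It stayed above control, by 2.29 at 8 h, and in both genes the 8 h arrays all lay below the 2 h arrays. Junb fell as well (-1.68 ± 0.19), and so did Atf3, a stress-induced member of the family (-1.45 ± 0.32, adjusted p = 0.000302). Atf3 read 10.31, 9.94, 9.38, 10.07 and 9.14 on the 8 h arrays, against 11.27, 11.22, 11.90, 11.78 and 9.91 on the 2 h arrays. Its groups overlapped, with array 5 at 2 h inside the 8 h range, and at 8 h it was still 3.55 above control. Fosl1, the Fra-1 subunit, went the other way, with 7.54, 7.34, 8.25, 8.10 and 8.28 on the 8 h arrays, against 5.92, 5.85, 7.05, 6.00 and 5.94 on the 2 h arrays (1.75 ± 0.18, adjusted p = 2.11e-10). Its 2 h arrays were at the control level except array 3.

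The promoter bases before the start of Fos are shown because they hold the core of a cAMP response element (TGACGT, both strands searched), to which the inducible CREB and ATF factors bind, and those of Atf3 hold it too. The sequences are RefSeq windows of build GRCm38.p6, read 5′ to 3′ on the gene's strand, with the motif in capitals.
Fos (chr12:85473640-85473889, plus strand): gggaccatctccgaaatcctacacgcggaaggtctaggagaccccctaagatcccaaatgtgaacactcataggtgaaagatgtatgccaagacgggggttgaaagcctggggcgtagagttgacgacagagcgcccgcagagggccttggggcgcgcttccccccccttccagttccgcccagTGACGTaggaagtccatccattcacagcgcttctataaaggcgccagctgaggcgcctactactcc
Atf3 (chr1:191183316-191183361, minus strand): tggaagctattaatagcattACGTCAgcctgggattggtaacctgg
Among promoters of the AP-1 subunit genes tested, 4 of 10 windows held this core (40.0%), against 7.51% of all 32851 windows of the same length. Of the 4 genes with a match, Fos and Atf3 fell and Maff and Batf were not called.

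**Figure D4:**
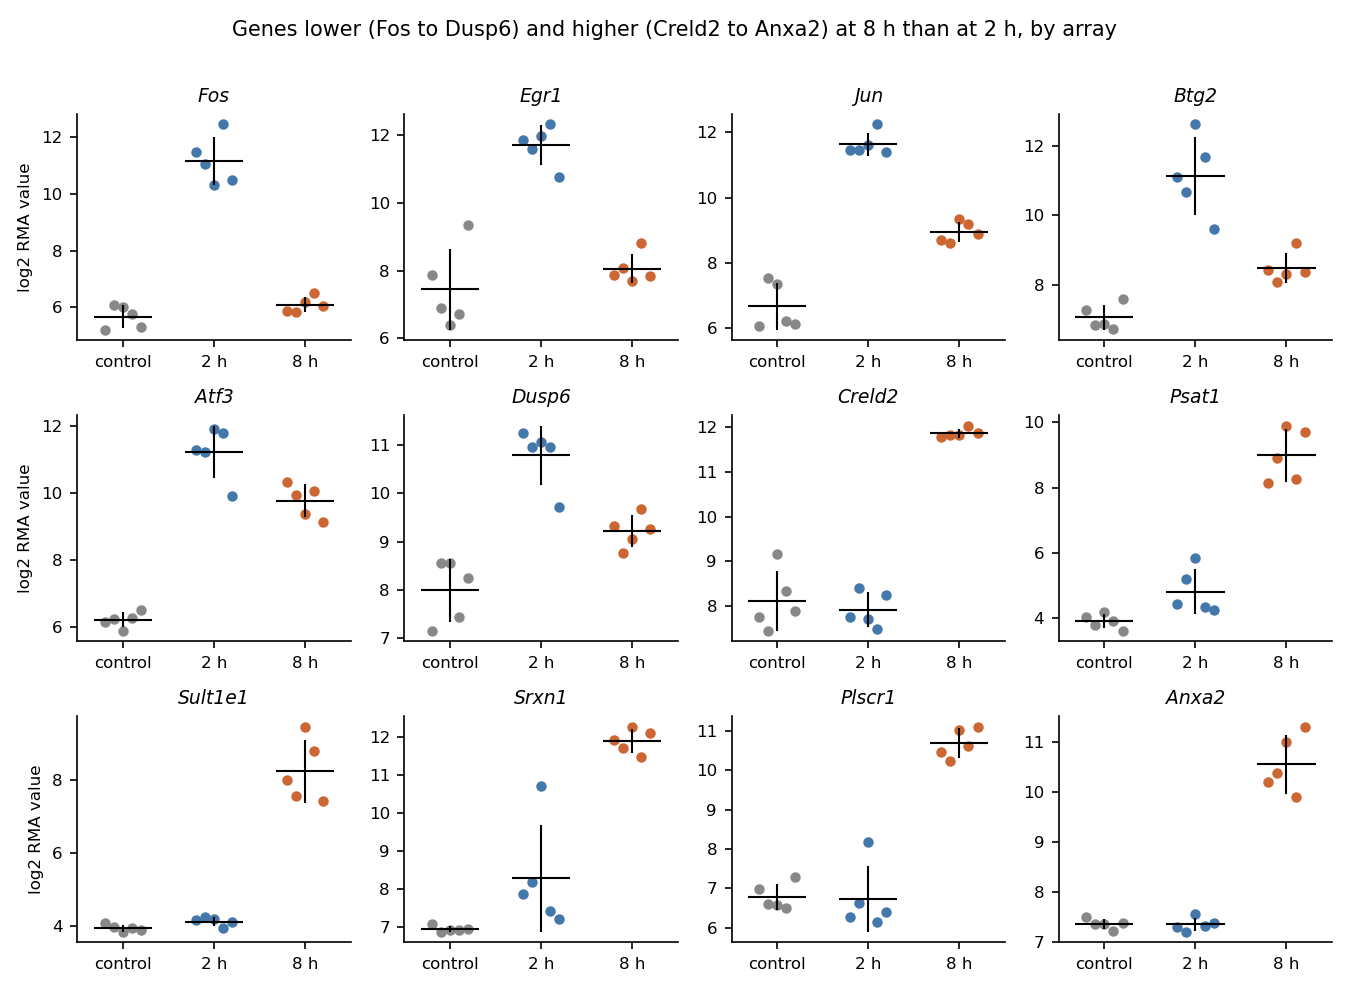
Log2 RMA values on each array of the control, 2 h and 8 h groups for 6 genes lower and 6 genes higher at 8 h than at 2 h, with the mean (horizontal bar) and SD (vertical bar, n = 5). Fos, Egr1, Jun, Btg2 and Dusp6 have all 8 h arrays below all 2 h arrays, Atf3 overlaps in array 5 at 2 h, and Creld2, Psat1, Sult1e1, Srxn1, Plscr1 and Anxa2 have all 8 h arrays above all 2 h arrays.

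Of 14 Egr, Nr4a, Klf and related genes, 6 were lower and 1 was higher at 8 h. Egr1, a zinc-finger factor induced by growth signals, read 7.88, 8.07, 7.70, 8.80 and 7.83 on the 8 h arrays, against 11.87, 11.61, 11.98, 12.32 and 10.75 on the 2 h arrays (12.5-fold lower, -3.65 ± 0.44, adjusted p = 1.03e-08). Ier2 fell by 6.7-fold and averaged 7.56 ± 0.22 at 8 h and 10.31 ± 0.75 at 2 h (SD, n = 5 each), and Nr4a1, an orphan nuclear receptor, by 2.8-fold. Egr1, Ier2 and Nr4a1 were no longer called against control at 8 h, and their 8 h arrays all lay below their 2 h arrays. Myc, which drives growth and ribosome genes, was the exception of this list and rose. It read 8.45, 8.92, 9.38, 8.65 and 8.95 on the 8 h arrays, against 7.39, 7.14, 9.15, 7.73 and 7.07 on the 2 h arrays (1.17 ± 0.32, adjusted p = 0.00334), with array 3 at 2 h inside the 8 h range.

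Of 25 genes that damp signalling or destroy mRNAs 13 were lower and 4 higher. Btg2, which recruits deadenylases to mRNAs, read 8.44, 8.10, 8.31, 9.21 and 8.39 on the 8 h arrays, against 11.11, 10.66, 12.61, 11.67 and 9.60 on the 2 h arrays (-2.64 ± 0.27, adjusted p = 4.29e-10). Zfp36, which marks AU-rich mRNAs for decay, fell by 5.08-fold and averaged 8.25 ± 0.27 at 8 h and 10.59 ± 0.72 at 2 h (SD, n = 5 each), against 8.42 ± 0.18 in controls. Dusp6, a phosphatase of the kinase ERK, fell by 2.97-fold (-1.57 ± 0.26) and was still 1.22 above control. The phosphatases of this family did not move together. Dusp4 rose by 3.36-fold (1.75 ± 0.34, adjusted p = 6.44e-05) and Dusp5 by 2.84-fold (1.50 ± 0.16, adjusted p = 1.33e-09), both with all 8 h arrays above all 2 h arrays. Dusp1 differed by -0.89 and was not called (adjusted p = 0.0919), although it was called with the 2 h and 8 h arrays fitted alone (adjusted p = 0.00644). Btg1, related to Btg2, rose by 2.31-fold (1.21 ± 0.23), opposite to it.

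Among the largest falls were 2 further first-wave genes with no called difference from control at 8 h. Rgs16, which switches off G protein signals, read 7.68, 7.46, 7.41, 9.51 and 8.89 on the 8 h arrays, against 12.02, 11.73, 11.70, 12.28 and 11.90 on the 2 h arrays (13.3-fold lower, -3.74 ± 0.48, adjusted p = 3.91e-08). Tcim, a small regulator of transcription, read 6.82, 6.97, 7.08, 6.97 and 7.14 on the 8 h arrays, against 10.05, 10.16, 11.19, 9.82 and 9.23 on the 2 h arrays (8.53-fold lower, adjusted p = 2.42e-13).

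In the list of GADD45 and p53 targets 7 of 17 were lower (41.2%) and 3 higher (17.6%), against 15.4% and 20.4% of all genes. Plk3, a stress kinase, fell by 4.75-fold (-2.25 ± 0.26) and stayed 0.88 above control. Gadd45a, a DNA damage and stress protein, read 9.50, 9.11, 8.52, 10.33 and 8.63 on the 8 h arrays, against 10.38, 10.26, 12.14, 10.42 and 8.87 on the 2 h arrays (-1.19 ± 0.39, adjusted p = 0.0149), and its groups overlapped. Its call ended without array 3 at 2 h (adjusted p = 0.105), without array 3 at 8 h (0.0584) or without array 5 at 8 h (0.0515), with control, 2 h and 8 h arrays alone (0.0529), with the 2 h and 8 h arrays alone (0.0730) and without arrays 1 to 3 at 2 h (0.497). Aen, a p53-induced nuclease, rose by 2.27-fold (1.19 ± 0.13, adjusted p = 9.06e-10). Cdkn1a, the cell cycle inhibitor p21, read 7.81, 7.25, 8.76, 8.48 and 8.77 on the 8 h arrays, against 8.66, 8.57, 9.26, 6.96 and 6.79 on the 2 h arrays. Its 2 h arrays were split in the same way as the clock genes, the step was not called (0.17 ± 0.30, adjusted p = 0.687), and it became -0.61 without arrays 4 and 5 at 2 h (adjusted p = 0.065) and 1.34 without arrays 1 to 3 (adjusted p = 0.000308).

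First-wave genes that ended below control numbered 13. Foxo3, a transcription factor that insulin signalling keeps out of the nucleus, read 6.40, 6.76, 6.35, 6.73 and 6.49 on the 8 h arrays, against 8.38, 8.27, 8.66, 8.90 and 8.55 on the 2 h arrays (-2.01 ± 0.15, adjusted p = 1.73e-13), and at 8 h it was -1.23 from control. Tsc22d3, the glucocorticoid-induced leucine zipper GILZ, fell by 4.95-fold (-2.31 ± 0.28) and was -1.19 from control at 8 h. The other named members were Mpzl2, Rhobtb1, Gprin3 and Akap12, with step differences from -1.19 to -1.17. In all 6 the groups did not overlap.

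Some genes of early stress and signalling did not pass the test over the step, so they are not counted as first-wave genes. Hspa1a, Ier3 and Socs3 belong to the class raised at both times with no called step. Hspa1a, the inducible chaperone Hsp70, read 9.38, 8.42, 9.24, 9.53 and 9.71 on the 8 h arrays, against 8.55, 9.82, 11.35, 10.97 and 9.66 on the 2 h arrays (-0.81 ± 0.48, adjusted p = 0.184). It was 6.06 above control at 2 h and 5.24 at 8 h, and its groups overlapped. Mt2, a metal-binding metallothionein, differed by 0.45 ± 0.57 (adjusted p = 0.564), and Hmox1, the haem-degrading enzyme, by 0.07 ± 0.27 (adjusted p = 0.86). Ier3 and Socs3 differed by -0.67 and -0.66 (adjusted p = 0.139 and 0.24), and Ier3 was called without array 1 at 2 h (adjusted p = 0.023). A p over the threshold does not show that these genes kept their level.

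Cytosolic heat shock chaperones and their mitochondrial partners mostly rose or did not pass the test. Of 21 tested, 11 rose and 2 fell, with a median of 0.50. Hspb1, a small chaperone, read 12.96, 12.86, 12.29, 12.57 and 12.30 on the 8 h arrays, against 9.76, 10.66, 11.62, 10.44 and 10.16 on the 2 h arrays (4.19-fold higher, 2.07 ± 0.43, adjusted p = 0.00019), and no array overlapped. Hspd1 and Hspe1, which form the mitochondrial Hsp60 and Hsp10 chaperonin from neighbouring genes, rose by 1.98-fold (0.99 ± 0.11) and 1.94-fold (0.95 ± 0.13). Hsph1 (Hsp110), which recharges Hsp70 with ATP, rose by 2.43-fold (1.28 ± 0.40, adjusted p = 0.0108), a call that ended without arrays 4 and 5 at 2 h (0.067). The members that fell were both J-domain partners of Hsp70. Dnajb4 read 8.46, 8.65, 8.41, 8.25 and 8.40 on the 8 h arrays, against 9.90, 10.29, 10.29, 10.00 and 9.96 on the 2 h arrays (-1.65 ± 0.14, adjusted p = 4.22e-12), and Dnajb1 fell by 2.08-fold (-1.06 ± 0.27, adjusted p = 0.00168). The Dnajb1 call ended with the mean of all its probe sets (adjusted p = 0.09) and without arrays 1 to 3 at 2 h (0.055).

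The heat shock element, read by the heat shock factor, was searched on both strands as GAA, TTC and GAA in that order with 2 free bases after each of the first units. It lay in 5 of 24 promoter windows of the list (20.8%), against 0.603% of all windows. The 4 genes with it (Hspd1, Hspe1, Hsph1 and Chordc1) rose, but so did 11 of the 21 in the list (52.4%). A link was not tested, nor was whether the neighbouring genes Hspd1 and Hspe1 share the same element. The windows of Hspd1 and Chordc1, both called higher, are shown with overlapping matches in capitals.
Hspd1 (chr1:55088044-55088096, minus strand): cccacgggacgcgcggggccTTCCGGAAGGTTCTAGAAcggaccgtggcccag
Chordc1 (chr9:18292243-18292295, plus strand): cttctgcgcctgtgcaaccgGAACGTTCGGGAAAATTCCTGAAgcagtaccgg

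Genes of the endoplasmic reticulum, where secreted proteins are folded, rose together. Of 34 genes for its chaperones and its degradation machinery, 31 rose and 1 fell, with a median difference of 1.00, against -0.05 over all genes tested. For 29 of the 34 all 8 h arrays lay above all 2 h arrays, against 13.9% of all genes. Creld2, a stress-secreted foldase, read 11.78, 11.82, 11.83, 12.03 and 11.86 on the 8 h arrays, against 7.75, 8.42, 7.71, 7.49 and 8.26 on the 2 h arrays. It was 15.3-fold higher at 8 h (3.94 ± 0.33, adjusted p = 1.27e-12), while at 2 h it lay at the control level. Sdf2l1, a cochaperone of BiP, read 9.33, 9.59, 9.54, 9.52 and 9.52 on the 8 h arrays, against 7.25, 7.54, 6.73, 7.35 and 7.42 on the 2 h arrays (4.73-fold higher, adjusted p = 1.04e-12), and it had been -0.79 from control at 2 h. Manf, a secreted stress protein, rose by 4.27-fold (2.10 ± 0.23), and Syvn1 (Hrd1), the ubiquitin ligase that disposes of misfolded proteins, by 3.7-fold (1.89 ± 0.22). Hspa5 (BiP), the master chaperone of the compartment, read 13.94, 13.94, 14.08, 13.90 and 13.86 on the 8 h arrays, against 12.58, 12.64, 13.00, 11.93 and 12.06 on the 2 h arrays (1.50 ± 0.22, adjusted p = 4.84e-07). Its level was already near the top of the scale, and no array overlapped. Herpud1, which helps degradation and had been raised at 2 h, fell by 1.62-fold (-0.70 ± 0.24, adjusted p = 0.018), a call that ended without array 3 (0.062) or array 5 (0.056) at 8 h, without array 1 at 2 h (0.059) or without arrays 1 to 3 at 2 h (0.28). Of the list, 10 genes had been below control at 2 h and 3 above it.

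The ER stress element is bound by the factors NF-Y and ATF6 and was searched on both strands as CCAAT and CCACG with 9 free bases between them. It lay in 10 of 30 promoter windows of the list (33.3%), against 39 of all 32851 windows (0.119%). The 10 genes with it all rose, but so did 31 of the 34 in the list (91.2%), and a link was not tested. Its first letters are a CCAAT box, which alone lay in 37.4% of all windows. The bases before Creld2 and the stretch around the element in 6 other risers are shown to let the element be compared, with it in capitals on either strand.
Creld2 (chr15:88819396-88819645, plus strand): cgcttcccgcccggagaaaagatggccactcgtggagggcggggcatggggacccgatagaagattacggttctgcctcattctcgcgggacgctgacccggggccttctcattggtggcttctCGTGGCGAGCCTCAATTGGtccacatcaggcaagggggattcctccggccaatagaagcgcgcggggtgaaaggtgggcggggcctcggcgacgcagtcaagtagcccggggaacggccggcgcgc
Syvn1 (chr19:6046512-6046570, plus strand): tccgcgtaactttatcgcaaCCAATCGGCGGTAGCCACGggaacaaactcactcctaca
Hspa5 (chr2:34772005-34772063, plus strand): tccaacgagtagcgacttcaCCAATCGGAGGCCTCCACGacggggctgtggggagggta
Dnajc3 (chr14:118937807-118937865, plus strand): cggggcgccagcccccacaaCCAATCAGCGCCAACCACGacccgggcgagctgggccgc
Hsp90b1 (chr10:86705618-86705676, minus strand): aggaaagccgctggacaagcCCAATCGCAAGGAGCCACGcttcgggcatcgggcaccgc
Pdia6 (chr12:17266471-17266529, plus strand): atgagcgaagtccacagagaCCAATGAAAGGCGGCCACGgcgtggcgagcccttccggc
Calr (chr8:84847055-84847113, minus strand): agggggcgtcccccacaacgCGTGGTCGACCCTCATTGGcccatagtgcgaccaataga
Syvn1, Hspa5 and Dnajc3 rose by 1.89, 1.50 and 1.30, and Hsp90b1, Pdia6 and Calr by 1.13, 1.06 and 0.75 on the log2 scale.

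Targets of ATF4 and CHOP, the arm of the stress response that restores amino acids and can lead to cell death, were divided between the waves. Of 33 tested, 19 rose and 6 fell, with a median of 0.51. Psat1, a serine synthesis enzyme and the largest rise of all genes called, read 8.12, 8.92, 9.90, 8.26 and 9.71 on the 8 h arrays, against 4.42, 5.21, 5.83, 4.33 and 4.25 on the 2 h arrays (18.1-fold higher, 4.18 ± 0.28, adjusted p = 8.61e-15). Ddit3 (CHOP) itself read 10.98, 10.97, 10.45, 10.90 and 10.45 on the 8 h arrays, against 9.03, 9.71, 9.97, 8.70 and 8.57 on the 2 h arrays (1.56 ± 0.22, adjusted p = 3.13e-07). Its other probe set did not show this rise (-0.25). Nupr1, a stress-induced chromatin protein, rose by 4.43-fold (2.15 ± 0.35), Trib3, a pseudokinase that restrains AKT, by 3.23-fold (1.69 ± 0.35), and Slc7a11, the cystine importer, by 3-fold (1.59 ± 0.32). These 5 risers had no overlap between the groups. Slc7a11 read 4.01 to 4.24 at 2 h, under the median of all values (5.56), as did 2 of its 8 h arrays, and whether it was expressed at 2 h was not tested. Psat1 was also under that median at 2 h on every array but array 3, so its fold may start from background.

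The 6 members that fell were Chac1, Ddit4, Fgf21, Cebpb, Cth and Shmt2. Chac1, which degrades glutathione, read 7.62, 7.77, 8.44, 8.51 and 8.12 on the 8 h arrays, against 10.16, 10.51, 11.58, 9.41 and 8.54 on the 2 h arrays (3.86-fold lower, -1.95 ± 0.33, adjusted p = 8.2e-06). Ddit4 (REDD1), an inhibitor of mTORC1, fell by 3.38-fold (-1.76 ± 0.25), and Fgf21, a starvation and stress hormone of the liver, by 3.2-fold (-1.68 ± 0.33, adjusted p = 6.92e-05). All 3 were still above control at 8 h, by 1.53, 1.14 and 2.06. The Fgf21 call ended without arrays 1 to 3 at 2 h (adjusted p = 0.23). Atf4 itself was among the 8 not called, at 0.16.

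The C/EBP-ATF response element searched was TGATGNAA on both strands. It lay in 10 of 34 promoter windows of the list (29.4%), against 3.97% of all windows, and of the 10 genes with it 6 rose and 2 fell. Windows of 3 genes that rose (Nupr1, Asns, Slc7a11) and of 2 that fell (Chac1, Fgf21) are shown, because the same letters stand before genes that moved in opposite directions over the step.
Nupr1 (chr7:126625553-126625600, minus strand): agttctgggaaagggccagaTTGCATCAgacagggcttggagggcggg
Asns (chr6:7693205-7693252, minus strand): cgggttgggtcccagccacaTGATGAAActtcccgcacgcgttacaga
Slc7a11 (chr3:50443652-50443699, minus strand): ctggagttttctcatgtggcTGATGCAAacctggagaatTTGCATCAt
Chac1 (chr2:119351029-119351076, plus strand): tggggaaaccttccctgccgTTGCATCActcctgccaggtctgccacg
Fgf21 (chr7:45615602-45615649, minus strand): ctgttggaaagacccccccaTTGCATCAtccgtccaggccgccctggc

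Antioxidant targets of Nrf2 rose in part. Of 28 tested, 11 rose and 1 fell, with a median of 0.13. Srxn1, which repairs oxidised peroxiredoxins, read 11.91, 11.70, 12.26, 11.47 and 12.11 on the 8 h arrays, against 7.87, 8.18, 10.71, 7.43 and 7.22 on the 2 h arrays (12.2-fold higher, 3.61 ± 0.34, adjusted p = 5.06e-11). Txnrd1, thioredoxin reductase, rose by 4.91-fold (2.30 ± 0.17), Gclc, the rate-limiting enzyme of glutathione synthesis, by 3.63-fold (1.86 ± 0.25), and Pgd of the pentose phosphate pathway by 2.72-fold (1.45 ± 0.19). In each of these 4 all 8 h arrays lay above all 2 h arrays, array 3 at 2 h included. The glutathione transferases listed (Gsta2, Gsta4, Gstm1, Gstm3, Gstm4 and Gstp1), which also belong to this program, were not called, with differences from -0.33 to 0.00. The member that fell was Nfe2l2, which encodes Nrf2 (-0.57 ± 0.14, adjusted p = 0.00116), a call that ended with the mean of all its probe sets (0.17, adjusted p = 0.35) and without arrays 1 to 3 at 2 h (-0.235, adjusted p = 0.248).

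**Figure D5:**
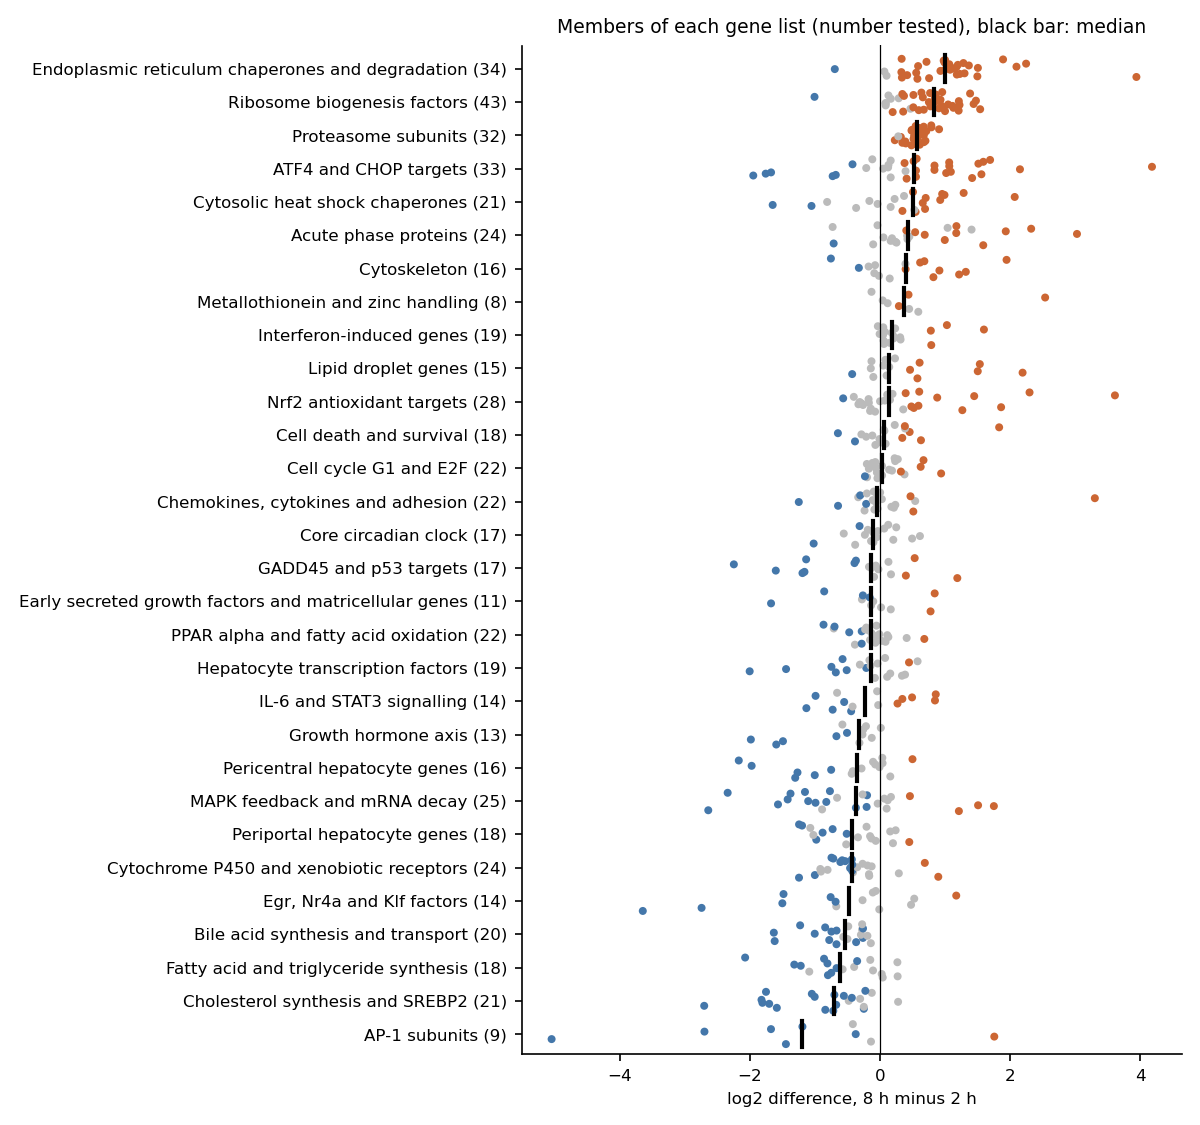
Each row is a gene list with its number of genes tested, and each point is 1 gene at its log2 difference, 8 h minus 2 h. Orange points were called higher at 8 h, blue points lower and grey points were not called, and black bars are medians. The endoplasmic reticulum list has the highest median at 1.00 and AP-1 the lowest at -1.19.

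Growth and protein turnover genes rose together by modest amounts. Of 43 ribosome biogenesis factors, which build ribosomes in the nucleolus, 35 rose and 1 fell, with a median of 0.82. Gar1, a subunit of the particle that pseudouridylates ribosomal RNA, read 8.38, 8.66, 9.01, 8.41 and 9.26 on the 8 h arrays, against 7.04, 7.21, 7.56, 7.21 and 7.00 on the 2 h arrays (2.9-fold higher, 1.54 ± 0.17, adjusted p = 1.33e-09). Nop58, Nip7 and Tsr1, all needed for pre-ribosome assembly, rose by 2.77-fold, 2.71-fold and 2.61-fold, and each had also been above control at 2 h. Rcl1 of the same list fell by 2.01-fold (-1.01 ± 0.16, adjusted p = 2.16e-06). Of 32 proteasome subunit genes 31 rose and none fell, within a range of 0.23 to 0.91. Psmd14, the lid deubiquitinase, read 10.14, 10.21, 10.10, 10.24 and 10.24 on the 8 h arrays, against 9.22, 9.50, 9.50, 9.01 and 9.18 on the 2 h arrays (0.91 ± 0.10, adjusted p = 1.94e-09). The 8 h arrays of 27 of the 32 all lay above the 2 h arrays.

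The other largest rises came from several programs. Sult1e1, which sulphates oestrogens, read 8.00, 7.56, 9.46, 8.78 and 7.41 on the 8 h arrays, against 4.16, 4.24, 4.19, 3.94 and 4.11 on the 2 h arrays (17.3-fold higher, 4.11 ± 0.19, adjusted p = 2.62e-20). Plscr1, a membrane scramblase that interferon also induces, rose by 15.6-fold (3.96 ± 0.28), Procr, the endothelial protein C receptor, by 9.89-fold (3.31 ± 0.23), and Sprr1a, a protein of the cornified envelope, by 9.67-fold (3.27 ± 0.50). Slc2a1 (GLUT1), a glucose transporter that adult hepatocytes hardly use, read 9.22, 8.82, 9.88, 9.49 and 9.51 on the 8 h arrays, against 6.00, 5.74, 7.89, 5.41 and 5.82 on the 2 h arrays (9.27-fold higher, adjusted p = 6.54e-13). Anxa2, a membrane-binding annexin, rose by 9.21-fold (3.20 ± 0.22), and its 2 h arrays spanned only 7.20 to 7.56. At 2 h Sult1e1 and Procr were under the median of all values on every array, so their folds start from values that may be background.

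Of 11 early secreted growth factors and matricellular genes 2 rose (18.2%) and 4 fell (36.4%), against 20.4% and 15.4% of all genes. Of 8 metallothionein and zinc genes 3 rose (37.5%), led by the zinc importer Slc39a10 (2.54 ± 0.32). With 1 array left out at a time, the zinc genes Slc39a14 and Mtf1, also called higher, each lost their call in 6 settings. Of the secreted factors, Adamts1 (higher) lost its call in 3 such settings, Lif (lower) in 4 and Inhbb (lower) in 3. Plaur (higher), Fgf21 and Vegfa (both lower) kept their calls in all of them. Structural and lipid-storage genes moved in part. Of 16 cytoskeleton genes 8 rose (50%) and 2 fell (12.5%). The genes that fell, Tuba1a and Vim, lost their calls in 8 and 5 of the settings with 1 array left out. Tubb6, a tubulin of injured cells, rose by 3.84-fold (1.94 ± 0.29), Krt8 by 2.49-fold (1.32 ± 0.24) and Krt18, its keratin partner in hepatocytes, by 2.32-fold (1.21 ± 0.24). In these 3 array 3 at 2 h reached the 8 h range. Of 15 lipid droplet genes 6 rose (40%) and 1 fell (6.67%). Plin2, which coats the droplets, read 12.91, 12.73, 12.98, 12.64 and 13.16 on the 8 h arrays, against 11.23, 11.00, 12.15, 11.45 and 10.93 on the 2 h arrays (2.89-fold higher, 1.53 ± 0.20, adjusted p = 5.99e-08), and Cidec, which enlarges them, rose by 4.56-fold (2.19 ± 0.41). At 2 h Cidec read 3.64 to 5.28, under the median of all values, so its fold may start from background. G0s2, which inhibits the lipase ATGL, had been -1.84 from control at 2 h, rose over the step by 1.50 ± 0.37 and was not called against control at 8 h. Fabp4, listed as an adipose marker and also made by other cells, rose by 3.8-fold (1.93 ± 0.20), while Cela1 and Cela3b of the same list fell.

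Several inflammatory genes differed widely between the 8 h arrays. Of 24 acute phase genes 10 rose and 1 fell (Crp, -0.71 ± 0.17), with a median of 0.43. Lcn2, an iron-siderophore binder, read 8.06, 8.07, 12.47, 12.06 and 12.26 on the 8 h arrays, against 6.94, 6.36, 9.61, 7.89 and 7.00 on the 2 h arrays (8.14-fold higher, 3.03 ± 0.80, adjusted p = 0.00259). Arrays 1 and 2 at 8 h lay below array 3 at 2 h, and arrays 3 to 5 lay far above all 2 h arrays. Saa2, serum amyloid A, showed the same order with 9.77, 10.56, 12.95, 13.44 and 13.09 on the 8 h arrays, against 8.41, 9.78, 10.87, 9.51 and 9.65 on the 2 h arrays (2.32 ± 0.88, adjusted p = 0.0352), and its call ended without any 1 of arrays 3 to 5 at 8 h (adjusted p from 0.0921 to 0.0996) or of arrays 1, 4 and 5 at 2 h (0.0555 to 0.0966). Saa1 differed by 1.40 ± 0.70 and was not called (adjusted p = 0.113), but it was with array weights (0.048) and with fewer groups in the fit (0.037 and 0.0053). Apcs, serum amyloid P, was uniform, with 11.62, 11.99, 12.12, 11.60 and 11.40 on the 8 h arrays, against 9.88, 10.39, 10.09, 9.94 and 10.52 on the 2 h arrays (1.58 ± 0.22, adjusted p = 3e-07).

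Of 22 chemokine, cytokine and adhesion genes 3 were higher (13.6%) and 4 lower (18.2%), near the 20.4% and 15.4% of all genes tested. Cxcl2, a neutrophil attractant, read 6.43, 5.18, 9.21, 7.71 and 8.35 on the 8 h arrays, against 3.98, 4.05, 4.20, 4.27 and 3.89 on the 2 h arrays (9.85-fold higher, 3.30 ± 0.37, adjusted p = 2.05e-09). Every 8 h array was above every 2 h array, with arrays 1 and 2 the lowest of the 8 h group. All 2 h arrays, and array 2 at 8 h, were under the median of all values for Cxcl2, so its fold may start from background. Cxcl1, which acts on the same receptor, had risen by 3.12 at 2 h and fell over the step (-1.25 ± 0.38, adjusted p = 0.00905). That fall was not called without arrays 1 and 2 at 8 h (adjusted p = 0.16) or without arrays 4 and 5 at 2 h (0.061). Ccl2, a monocyte attractant, was higher by 0.51 ± 0.20 (adjusted p = 0.0428), a call that ended in 6 of the 10 settings that left out 1 array.

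In the IL-6 and STAT3 list 5 of 14 rose and 5 fell (35.7% each, against 20.4% and 15.4% of all genes). Il6st (gp130), the shared signalling receptor, rose by 1.79-fold (0.84 ± 0.10) and Osmr, the oncostatin M receptor, by 1.81-fold (0.85 ± 0.19). The ligand-binding receptors Il6ra and Lifr were lower, with log2 differences of -0.55 ± 0.17 and -0.99 ± 0.24, and so was Cebpd, a factor that drives acute phase genes (-1.13 ± 0.22). Il6ra was not called without arrays 1 to 3 at 2 h (-0.40, adjusted p = 0.172), where 2 genes of the list were lower. Of 19 interferon-induced genes 4 rose (21.1%, near the 20.4% of all genes) and none fell, with Rsad2 (viperin) at 8.96, 9.42, 11.17, 8.82 and 10.56 on the 8 h arrays, against 8.24, 8.12, 8.67, 7.97 and 7.96 on the 2 h arrays (1.59 ± 0.33, adjusted p = 0.000151). Arrays 3 and 5 at 8 h were the highest for it. Tnfrsf12a (Fn14), the receptor of TWEAK, rose by 3.55-fold (1.83 ± 0.27). It was listed among 18 death and survival genes, of which 5 rose (27.8%) and 2 fell (11.1%), against 20.4% and 15.4% of all genes. Of 22 genes of G1 and E2F control 4 rose (18.2%, against 20.4% of all genes), led by Cdc25a, a phosphatase that opens S phase (0.94 ± 0.12, adjusted p = 2.97e-08), and 1 fell.

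Among the lists of hepatocyte metabolism, the share of genes that fell was highest in cholesterol synthesis. Of 21 genes of that pathway 16 fell and none rose, with a median of -0.70. Hmgcs1, which makes the HMG-CoA that enters the pathway, read 8.53, 9.85, 8.72, 8.79 and 8.20 on the 8 h arrays, against 11.84, 12.06, 11.54, 11.19 and 10.97 on the 2 h arrays (6.52-fold lower, -2.70 ± 0.29, adjusted p = 7.3e-10). Msmo1, a sterol demethylase, fell by 3.54-fold (-1.82 ± 0.29), Stard4, a sterol carrier, by 3.37-fold (-1.75 ± 0.17), and Insig1, the sensor that holds SREBP back, by 3.51-fold (-1.81 ± 0.25). For these 4 every 8 h array lay below every 2 h array. At 2 h only 3 of the 21 were below control, and at 8 h 17 were.

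The bases before Hmgcs1 are shown with the 1 match of the sterol regulatory element searched, TCACNCCAC, the type of site that SREBP binds. This spelling lay in 1 of 22 promoter windows of the list (4.55%) and in 1.24% of all windows, and a CCAAT box lay in 17 of the 22 (77.3%), against 37.4%.
Hmgcs1 (chr13:119690101-119690350, plus strand): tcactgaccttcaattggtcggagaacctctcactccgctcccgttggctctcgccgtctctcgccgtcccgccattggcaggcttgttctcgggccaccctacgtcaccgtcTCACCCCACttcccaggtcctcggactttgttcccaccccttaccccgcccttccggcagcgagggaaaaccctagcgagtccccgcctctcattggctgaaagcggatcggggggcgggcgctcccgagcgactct

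Fatty acid synthesis fell too, with 9 of 18 genes lower and none higher. Thrsp (Spot14), a lipogenic regulator, read 11.08, 11.20, 10.13, 11.21 and 9.86 on the 8 h arrays, against 12.23, 13.19, 12.11, 12.87 and 13.47 on the 2 h arrays (4.21-fold lower, -2.08 ± 0.57, adjusted p = 0.00342). Against control it was not called at 8 h (-0.75). Gpam, which starts triglyceride assembly, fell by 2.5-fold (-1.32 ± 0.22), and Fasn, fatty acid synthase, by 2.33-fold (-1.22 ± 0.26). Srebf1, the transcription factor over these genes, was lower as well (-0.86 ± 0.24), having differed from control by -0.81 at 2 h, but without arrays 4 and 5 at 2 h it was not called (adjusted p = 0.0722). Of 22 PPAR alpha and fatty acid oxidation genes 5 were called lower (22.7%, against 15.4% of all genes) and 1 higher (4.55%, against 20.4%). Without arrays 1 and 2 at 8 h, 0 were called lower.

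Of 20 bile acid genes 12 fell and none rose, with a median of -0.53. Nr0b2 (SHP), the repressor that bile acids induce through FXR, read 7.40, 7.55, 6.64, 6.50 and 6.48 on the 8 h arrays, against 9.14, 8.76, 8.24, 8.52 and 8.08 on the 2 h arrays (3.1-fold lower, -1.63 ± 0.30, adjusted p = 3.15e-05). Akr1d1, a steroid reductase of bile acid synthesis, fell by 3.08-fold (-1.62 ± 0.40) and Slco1b2, an uptake transporter, by 2.35-fold (-1.23 ± 0.27). Cyp7a1, the rate-limiting enzyme, was not called (-0.57 ± 0.51, adjusted p = 0.394) and was already -1.63 from control at 2 h. Its 8 h arrays ranged from 5.91 to 9.31, and without arrays 1 and 2 at 8 h the difference was called at -1.38 (adjusted p = 0.0400). Of 24 cytochrome P450 and xenobiotic receptor genes 11 fell and 2 rose. The receptors Ahr, Nr1i3 (CAR) and Nr1i2 (PXR) fell by 2.37-fold, 1.68-fold and 1.65-fold, each with no overlap, and Cyp3a13 rose by 1.61-fold. The other probe set of Ahr moved much less (-0.24 on the log2 scale).

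Cyp2e1, the enzyme that activates CCl4, read 13.71, 13.63, 13.45, 13.70 and 13.47 on the 8 h arrays, against 14.16, 13.90, 13.96, 14.03 and 14.10 on the 2 h arrays. All 8 h arrays lay below all 2 h arrays, yet the difference was not called in the fit over all groups (-0.44 ± 0.27, adjusted p = 0.202). It was called with the 8 h and 2 h arrays fitted alone (adjusted p = 0.001) and with controls added (0.00036), where the spread of later times is left out.

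Of 16 pericentral genes 6 were lower (37.5%) and 1 higher (6.25%), and of 18 periportal genes 6 were lower (33.3%) and 1 higher (5.56%). Of all genes tested 15.4% were lower and 20.4% higher. With 1 array left out, the higher pericentral gene (Tbx3) lost its call in 5 of 10 settings and the higher periportal gene (Asl) in 9 of 10. Glul, glutamine synthetase of the innermost pericentral cells, read 10.20, 10.10, 10.40, 10.15 and 10.68 on the 8 h arrays, against 11.52, 11.43, 11.63, 11.61 and 11.69 on the 2 h arrays (2.41-fold lower, -1.27 ± 0.18, adjusted p = 3.74e-07). Oat and Slc1a2 of the same zone fell by 3.93-fold and 4.51-fold, and Aldh1a1 by 2.47-fold. Of periportal genes Tat, a tyrosine-degrading enzyme, fell by 2.37-fold (-1.25 ± 0.26) after a rise of 0.70 at 2 h, and Slc7a2, an arginine transporter, by 2.3-fold. Among 19 liver transcription factors 7 fell (36.8%) and 1 rose (5.26%), with Klf15 2.73-fold lower (-1.45 ± 0.28), Foxo1 1.6-fold lower and Nr1h4 (FXR) 1.68-fold lower. The gene that rose, Onecut2, lost its call in 5 of 10 settings with 1 array left out. Without arrays 1 to 3 at 2 h, 4 of these factors were called lower. In the growth hormone axis 5 of 13 fell (38.5%). Ghr, the hormone's receptor, read 10.52, 11.03, 9.98, 10.14 and 9.94 on the 8 h arrays, against 11.97, 11.78, 11.80, 11.75 and 11.79 on the 2 h arrays (-1.49 ± 0.18, adjusted p = 1.26e-08), and Hsd3b5, a male-specific steroid enzyme under its control, fell by 3.97-fold (-1.99 ± 0.42).

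Other large falls were in genes with varied roles. Upp2, a uridine phosphorylase of the liver, read 8.50, 9.29, 6.30, 8.62 and 6.64 on the 8 h arrays, against 11.15, 10.75, 10.30, 11.61 and 11.65 on the 2 h arrays (9.32-fold lower, -3.22 ± 0.53, adjusted p = 5.25e-06). Its 8 h arrays were far apart, with arrays 3 and 5 the lowest, and none reached the 2 h range. Ppp1r3c, which targets a phosphatase to glycogen, fell by 5.48-fold (-2.45 ± 0.28). Nrep had been lowered by 2 h and was lower again at 8 h, with 5.15, 7.00, 4.78, 4.84 and 3.85 on the 8 h arrays, against 7.37, 7.36, 7.12, 8.54 and 8.27 on the 2 h arrays (-2.61 ± 0.45, adjusted p = 1.11e-05). Its 8 h arrays except array 2 were under the median of all values, where readings may be background.

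A last class was below control at 2 h and above it at 8 h, with 157 genes. Its largest steps besides Sdf2l1 were those of H2aw (1.84 ± 0.20), Ugcg, which makes glucosylceramide (1.84 ± 0.26), Susd1 (1.73 ± 0.22), Npc1, the lysosomal cholesterol exporter (1.65 ± 0.20), and Apcs. Npc1 read 9.46, 9.57, 9.87, 9.41 and 9.75 on the 8 h arrays, against 7.53, 7.83, 8.06, 8.17 and 8.22 on the 2 h arrays, and 8.55, 8.69, 8.64, 8.90 and 9.08 in controls. Every 2 h array was below every control array, and every 8 h array was above them.

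Markers of liver cell types were counted in the same way, beside 20.4% of all genes tested called higher and 15.4% called lower. Hepatocyte-defining genes averaged 13.79 to 13.93 at 8 h and 13.88 to 13.94 at 2 h, with 2 of 9 called lower (Apoh at -0.21 and Ttr at -0.11). Ttr lost its call in 8 of 10 settings with 1 array left out and with arrays shifted to the same median (adjusted p = 0.298). Of 12 Kupffer cell markers 1 fell (Adgre1, -0.42 ± 0.14), and their mean level was 7.64 to 7.84 at 8 h and 7.61 to 7.91 at 2 h, against 8.00 to 8.17 in controls. Adgre1 was not called without array 4 at 8 h (adjusted p = 0.0612). None of 10 monocyte markers was called, and of 10 neutrophil markers 2 were called lower by under 0.3 (Mpo and Ltf), with mean levels of 5.94 to 6.17 at 8 h and 6.04 to 6.25 at 2 h. With arrays shifted to the same median neither was called (adjusted p = 0.0784 for Mpo and 0.0899 for Ltf). Sinusoidal endothelial markers had 1 of 18 higher (Bmp2) and 2 lower (Dnase1l3 and Ehd3). With 1 array left out, Bmp2 lost its call in 3 of 10 settings and Ehd3 in 5. Of 14 stellate cell markers 4 fell, led by Col3a1 (-1.32 ± 0.30, adjusted p = 0.000522), and the mean of the list was 6.53 to 6.82 at 8 h and 6.85 to 6.91 at 2 h. The others were Lrat, Ngfr and Gfap. Ngfr was not called with its most variable probe set (adjusted p = 0.682). Gfap lost its call in 4 of 10 settings with 1 array left out. Col3a1 overlapped only between array 2 at 8 h and array 3 at 2 h. None of the 4 B cell and 3 cholangiocyte markers was called, and 1 of 5 T and NK cell and 1 of 2 erythroid markers fell. The erythroid marker, Alas2, lost its call in 3 of 10 settings with 1 array left out. The part of cell numbers in the gene results was not tested.

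Whole-array measures were compared last. Between the 3 prime and 5 prime control probe sets, Gapdh differed on average by 0.167 ± 0.0809 at 8 h and 0.136 ± 0.134 at 2 h (SD, n = 5 each), and actin by 1.31 ± 0.181 at 8 h and 1.38 ± 0.129 at 2 h, neither past an exact permutation test (adjusted p = 0.873 and 0.794). The array median was 5.54 ± 0.0233 at 8 h and 5.59 ± 0.0267 at 2 h (two-sided exact p = 0.0238, adjusted over 5 measures 0.119), where the smallest p that 5 arrays against 5 allow is 0.00794.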

How the data were processed

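RNA of whole liver was hybridised to an Affymetrix mouse genome array. The deposited values are on the log2 scale, summarised by RMA with oligo 1.52.0 per the submitters' processing notes, and 46 arrays in 9 groups were used. Of 45101 probe sets, 34945 named exactly 1 gene, 932 named several and 9160 had no gene listed. Each of 18193 genes was represented by its brightest such probe set, averaged across the arrays. Genes exceeding 5.56, the overall median value, on 5 or more arrays were tested, which left 13239 and removed 4954. Groups came from the array titles.

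All groups entered 1 limma fit (limma 3.58.1, R 4.3.3, 37 residual degrees of freedom), with Benjamini-Hochberg adjustment over all genes tested and calls at an adjusted p under 0.05. For whole-array measures an exact permutation test, two-sided, was used. The number of arrays limits the precision.

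The genes, gene lists and wave classes were chosen with earlier results of these data known. Named genes were the 10 largest rises and 10 largest falls with no overlap between the groups, the 6 largest steps of each wave class, up to 4 called members a list in each direction, and a panel of stress, clock and liver genes. A few other list members are named where a count turns on them, chosen after their values were seen. Of 754 list entries on the array, those under the filter were not tested. Near-identical copies (Hspa1a and Hspa1b, Saa1 and Saa2, the Hsd3b and metallothionein genes) may share probes. For 74 of 5228 genes with another probe set tested, that probe set was called in the opposite direction. Other probe sets of some named genes moved much less than the one reported. The probe set furthest from it gave 0.64 for Srxn1, 0.01 for Dnajb4, -0.07 for Tubb6 and 0.05 for Fabp4. For Slc1a2 it gave 0.04 and for Thrsp -0.32, and these genes are examples.

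Promoter windows are RefSeq sequences of GRCm38.p6. The alternatives were array scaling, filters, probe set rules, the arrays in the fit, variance models, array weights, a replicate block, the Gapdh control value as a covariate and leaving out each array. After seeing the data, 4 more were added (2 h arrays 4 and 5, 2 h arrays 1 to 3, or 8 h arrays 1 and 2 left out, and Dbp minus Arntl as a covariate). Python 3.11.15, pandas 2.3.3 and matplotlib 3.10.9 were used.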

Additional observations from a re-analysis of the deposited data

Results flagged for a closer look

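In 464 groups of 5 arrays (232 named genes at each of 2 times), 25 had 1 array far from the other 4 by Dixon's criterion (gap over range above 0.71), 19 of them at 2 h and 6 at 8 h. Chance alone gives about 1 in 20 groups, and 5.39% were found. Array 3 at 2 h accounted for 14, and in 12 of these it was the highest.

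On array 3 at 2 h the values were 5.28 for Cidec, 9.18 for Cln8, 9.67 for Cyp3a13, 7.05 for Fosl1, 8.12 for Klf15, 8.19 for Plscr1 and 8.34 for Rhobtb1. On the same array they were 7.89 for Slc2a1, 8.81 for Sprr1a, 10.71 for Srxn1, 9.16 for Tnfrsf12a, 5.01 for Trim12c, 9.32 for Txnrd1 and 9.06 for Vegfa. Other 2 h arrays stood apart for Cyp26a1 (7.39, array 4), Dusp6 (9.72, array 5), Ghr (11.97, array 1), Jun (12.24, array 4) and Mpo (6.40, array 1). At 8 h they were Ccl2 (6.44, array 3), Dbp (9.23, array 2), Gfap (5.78, array 5), Ier2 (7.17, array 1), Nr1i2 (7.21, array 4) and Sdf2l1 (9.33, array 1). The cause was not tested.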

How the results depend on the processing

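With each array left out in turn, the genes higher at 8 h numbered 2350 to 2812 and those lower 1530 to 2148, those higher by at least 2-fold 298 to 414 and those lower by at least 2-fold 159 to 193, first-wave genes shut off 190 to 294 and second-wave genes switched on 1277 to 1576. With the mean of all probe sets 205 genes were higher by at least 2-fold, without arrays 4 and 5 at 2 h 1285 were lower, and without arrays 1 to 3 at 2 h 162 first-wave genes were shut off. The fit of the 8 h and 2 h arrays alone gives no wave counts. The array numbers did not pair the arrays, with correlations of deviations from -0.149 to 0.302 and 2 of 5 arrays closest to their own number, and with the replicate block 2692 genes were higher and 2021 lower, 4637 calls being shared.

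Some named genes changed sign. Hmox1 read -0.0481 with quantile normalization, -0.0392 without arrays 4 and 5 at 2 h, and down to -0.0875 with 1 array left out (-0.0468 and -0.0840 without arrays 3 and 4 at 8 h, -0.0432, -0.0875 and -0.0319 without arrays 1, 2 and 5 at 2 h) and up to 0.424 without array 3 at 2 h. Nfe2l2 read 0.170 with the mean of probe sets and Hsd3b3 0.357 with the most variable probe set. Cdkn1a read -0.104 and -0.149 without array 4 or 5 at 2 h and -0.615 without both, up to 0.469 without array 3 at 2 h. Without arrays 4 and 5 at 2 h, Mt2 read -0.0101. Dbp read -0.102 with the clock covariate and -1.36 without arrays 1 to 3 at 2 h, where Arntl read 0.401, Chka 0.284 and Rora 0.0368. The cause was not tested. Of 232 named genes 188 (without arrays 1 to 3 at 2 h) to 229 kept direction and call, and 189 did without arrays 4 and 5 at 2 h. The P450 and xenobiotic receptor genes called lower, 11 as reported, were 17 in the fit of 8 h and 2 h arrays alone and 7 without arrays 1 to 3 at 2 h. The acute phase genes called higher, 10 as reported, were 16 with array weights and 6 without array 4 at 8 h or without arrays 1 to 3 at 2 h.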
